A study of Macaca mulatta with 7 samples.

Results

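Potassium channel genes were followed through the major cell classes of the rhesus monkey (Macaca mulatta) spinal cord, intact and below a complete thoracic injury. Members were all gene symbols that begin with KCN, then a letter from A to V and a digit, or with KCNMA, KCNMB, KCNIP or KCNAB. This rule used no measured value and gave 89 of 28966 genes, of which 74 encode pore-forming or modifier subunits and 15 auxiliary subunits. Single-nucleus RNA-seq, which captures each nucleus in its own droplet and counts RNA molecules by a random tag, the UMI, gave 7 libraries with 1 library per group. Intact cervical, thoracic and lumbar cord came from an untreated animal aged 5 years. Lumbar cord below the injury was taken 7 days post injury (dpi) at an age of 7 years, 14 dpi at 7 years, 30 dpi at 6 years and 6 months post injury (mpi) at 6 years. The methods of the study place the 3 intact segments in 1 animal, so time, animal, age and library cannot be told apart. No test between groups was possible, and every interval is an exact 95% interval for counting error only.

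Potassium channels let potassium leave the cell, which sets the resting potential, ends action potentials and spaces them. Voltage-gated channels (KCNA to KCND, KCNH, KCNQ) open on depolarization, calcium- and sodium-activated channels (KCNMA1, KCNN, KCNT) couple firing to ion entry, and inward rectifiers (KCNJ) and tandem-pore leak channels (KCNK) hold the membrane at rest. In glia, inward rectifiers and leak channels clear potassium from the extracellular space, and in microglia leak channels bear on surveillance and cytokine release.

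The libraries held 6134 to 12015 barcodes and 45079131 to 150987900 UMIs each, with 6 mpi the shallowest. After filtering, 63730 nuclei remained, and clusters were named "-like" by marker genes with all members left out of the clustering. The 5 large classes were oligodendrocyte-like (22079 nuclei), microglia-like (20472), neuron-like (9082), oligodendrocyte precursor (OPC)-like (3946) and astrocyte-like (3805). The injured libraries held only 98 to 244 astrocyte-like and 223 to 335 OPC-like nuclei each, which limits precision there. Each class held its own marker list above the other classes, and the 8 neuron markers, for example, summed to 2879 to 3578 CPM in neuron-like nuclei and to at most 586 elsewhere. Any pair of libraries shared 12 to 36 barcodes, at most 0.379% of the smaller library. Levels are CPM, the UMIs of a gene per 1000000 UMIs of the class in a library. Longer genes yield more UMIs in nuclei, so a level is compared for 1 gene between classes or libraries and not between genes.

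The classes differed in how many channel genes they held, and shared many of them. Of the 89 members, 50 reached a mean of 10 CPM in at least 1 large class, and 29 stayed below 5 CPM in every large class. At 10 CPM over the 7 libraries, 42 members were counted in neuron-like, 34 in astrocyte-like, 33 in OPC-like, 19 in microglia-like and 18 in oligodendrocyte-like nuclei. Of all 28966 genes, 9172, 9307, 8530, 8507 and 7926 passed the same limit in these classes in this order, and 11915 in at least 1 of them. None of the 8 KCNA genes, voltage-gated channels several of which sit on axons, was counted in any large class. In neuron-like nuclei 3 of 4 KCNC, 2 of 3 KCND, 5 of 8 KCNH, 4 of 5 KCNQ, 7 of 14 KCNK and 3 of 13 KCNJ genes were counted. Levels depend on gene length, so these counts do not rank families, and a gene that was not counted is not shown to be absent. KCNA3, for example, was at 7.37 to 17.4 CPM in the excitatory-like and 10.7 to 21.6 CPM in the inhibitory-like neurons described below.

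**Figure D1:**
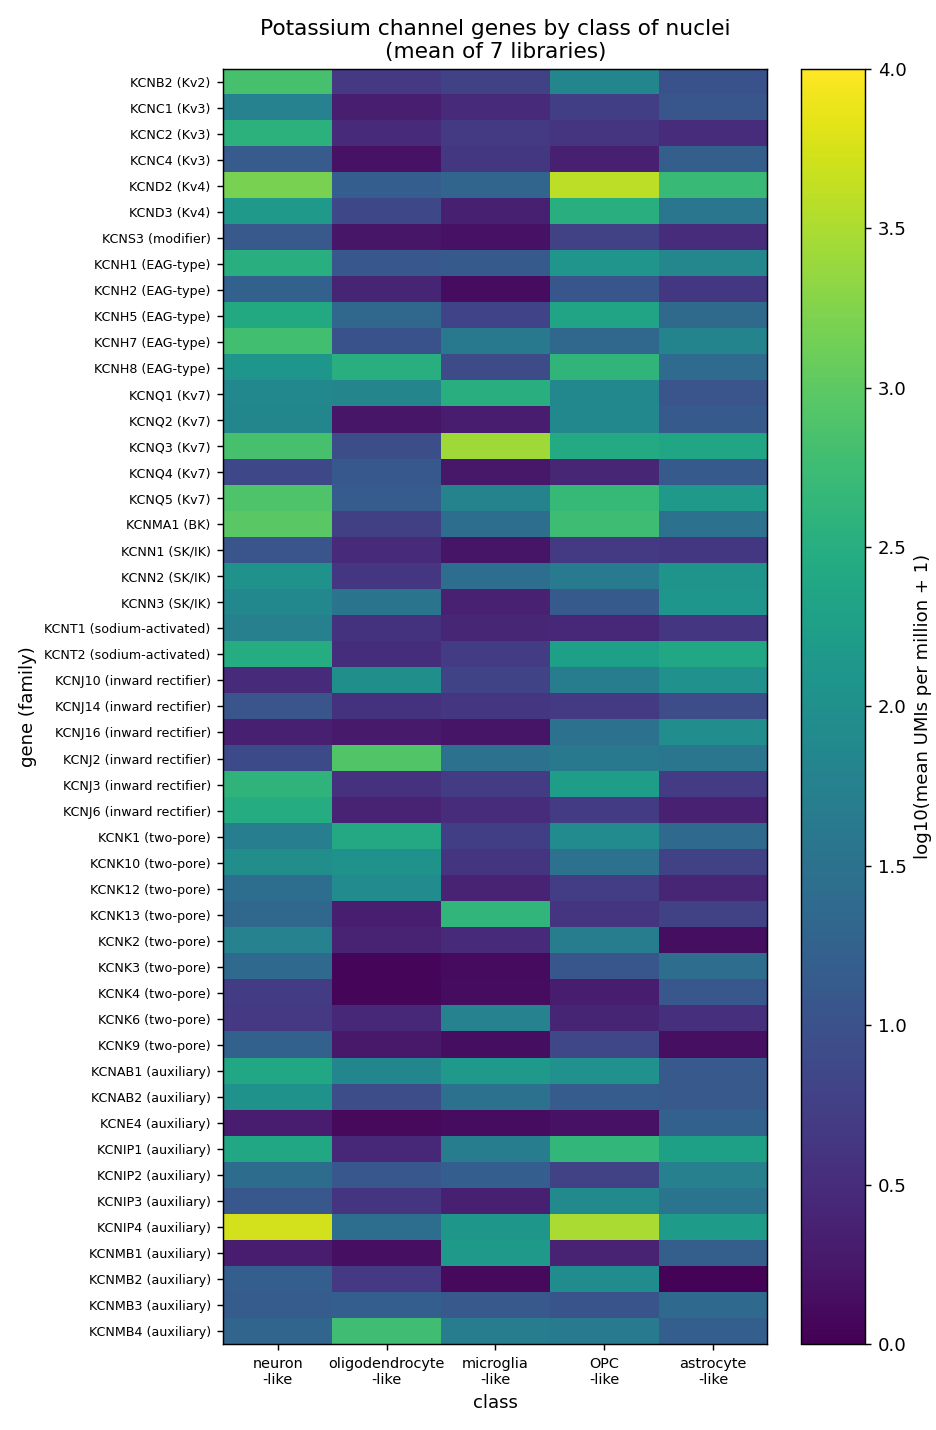
Mean level over the 7 libraries of 49 of the 50 members that reached 10 CPM in any large class, by class (columns) and gene with its family (rows), as log10(mean CPM + 1) in color. Levels are not corrected for gene length, so colors are read along a row; KCNJ6 is bright in neuron-like, KCNJ2 in oligodendrocyte-like, KCNK13 in microglia-like and KCNMB2 in OPC-like nuclei.

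A member was called class-restricted when its level was at least 4-fold over each other large class, and at least 10 CPM, in all 7 libraries. By this rule 9 of the 50 members were restricted. Neuron-like nuclei held 4 of them (2.33% of all genes evaluated were restricted to this class), oligodendrocyte-like nuclei 2 (0.965%), microglia-like nuclei 2 (4.01%) and OPC-like nuclei 1 (0.537%). Astrocyte-like nuclei held 0 (1.58% of all genes).

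The neuron-restricted members were KCNC2, a fast delayed rectifier of rapidly firing neurons, KCNJ6, a G protein-gated inward rectifier that carries slow inhibition, KCNT1, a sodium-activated channel, and KCNB2, a delayed rectifier of the cell body. KCNC2 was at 361, 384 and 357 CPM in neuron-like nuclei of intact cervical, thoracic and lumbar cord and at 364, 388, 392 and 354 CPM at 7, 14 and 30 dpi and 6 mpi. Its level in any other class was at most 6.18 CPM, so the smallest ratio to the next class was 62.8-fold. The KCNC2 level thus moved little between libraries while it differed widely between classes. KCNJ6 was at least 47.1-fold, KCNT1 7.79-fold and KCNB2 5.22-fold over the next class.

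RNA freed from broken cells gives neuron genes a low level in every droplet, and a fixed list of 24 neuron genes served to size it. The median of that list was 1.38% to 5.55% of the neuron level in oligodendrocyte-like and 1.39% to 3.37% in microglia-like nuclei. KCNC2 lay at 0.211% to 0.934% of its neuron level in oligodendrocyte-like and KCNJ6 at 0.389% to 1.02% in microglia-like nuclei, below those medians. Single genes of the list spanned 0.337% to 62% and 0.466% to 83.8%, so free RNA and low expression cannot be told apart for these traces. OPC-like nuclei held the neuron list at a median of 14.4% to 19.6%, with single genes from 0% to 216%. Some list genes were thus above their neuron level there, so the list does not size free RNA in OPC-like nuclei. KCNB2 reached 5.01% to 19.2% of its neuron level in that class, and the part of free RNA was not tested.

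KCNJ2, a strong inward rectifier that stabilizes the resting potential, and KCNMB4, a modulatory subunit of the BK channel, were restricted to oligodendrocyte-like nuclei. KCNJ2 was at 961, 809 and 971 CPM in intact cord (cervical, thoracic, then lumbar) and at 855, 592, 752 and 711 CPM at 7, 14 and 30 dpi and 6 mpi. Its ratio to the next class was at least 8.28-fold and that of KCNMB4 at least 6.28-fold. In Mmul_10 coordinates (RefSeq annotation) KCNJ2 lies on chromosome 16 at 66457894 to 66470542. KCNJ16, an inward rectifier that joins KCNJ10 in glial channels, lies just upstream on the same strand at 66145800 to 66424710. KCNJ16 had another distribution, with 48.9 to 132 CPM in astrocyte-like and 21.3 to 38.1 CPM in OPC-like nuclei.

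KCNK13 and KCNK6, both leak channels, were restricted to microglia-like nuclei. KCNK13, which encodes the THIK-type channel that holds the resting potential of microglia, was at 339, 368 and 409 CPM in intact cervical, thoracic and lumbar cord and at 544, 519, 429.5 and 377 CPM at 7, 14 and 30 dpi and 6 mpi. Its level in the next class was at most 28.1 CPM, and the smallest ratio was 14.7-fold. KCNK6 was at 68.5, 74.0 and 69.2 CPM in the intact libraries and at 69.5, 40.2, 46.2 and 36.3 CPM after injury, at least 8.88-fold over the next class. KCNK6 was below the 3 intact libraries at 14 and 30 dpi and 6 mpi but not at 7 dpi.

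KCNMB2, which encodes an inactivating subunit of the BK channel, was the OPC-restricted member, at 60.2 to 102 CPM and at least 4.73-fold over the next class. Without doublet removal KCNMB2 was no longer restricted. OPC-like nuclei also held the A-type channel gene KCND2 at 3445 to 4522 CPM in the 7 libraries, above the 1413 to 1793 CPM of neuron-like nuclei in all 7. KCNIP4, a calcium-binding partner of KCND channels, was at 2296 to 4032 CPM in OPC-like and 4882 to 6255 CPM in neuron-like nuclei.

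KCNJ10, the main glial inward rectifier, and KCNJ16 are described for their known role and after their values were seen. KCNJ10 was at 75.7 to 149 CPM in astrocyte-like, 75.1 to 118 CPM in oligodendrocyte-like, 39.7 to 59.4 CPM in OPC-like and 3.76 to 8.84 CPM in microglia-like nuclei. The astrocyte-like and oligodendrocyte-like ranges overlapped, and both lay above those of the other classes named here. Intact astrocyte-like nuclei fell into 2 large clusters with different channel sets. Cluster 13, led by ITPRID1 and SLC1A2, held KCNJ10 at 136 to 153 CPM, KCNJ16 at 138 to 208 CPM and KCND2 at 1004 to 1107 CPM in the 3 intact libraries. Cluster 10, led by SLC14A1 and MYBPC1, held KCNJ10 at 50.1 to 60.9, KCNJ16 at 25.4 to 36.7 and KCND2 at 156 to 275 CPM. The sodium-activated channel gene KCNT2 went the other way, with 40.4 to 61.7 CPM in cluster 13 and 406 to 414 CPM in cluster 10, as did the SK channel gene KCNN2, with 19.1 to 28.3 and 172 to 193 CPM. These cluster levels are a description, since the clusters were formed from genes of the same nuclei.

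In neuron-like nuclei, none of the 42 members counted at 10 CPM was past 2-fold after injury. A gene was called when it was at least 2-fold from intact lumbar cord, outside the range of the 3 intact libraries, with an interval of the ratio that left out 1. Of the 42 counted members, 0 were called in either direction at 7, 14 or 30 dpi or 6 mpi. Over all 9172 counted genes, 0.654%, 0.327%, 0.283% and 1.21% were called higher and 0.436%, 0.469%, 0.545% and 0.654% lower at these times. At all 4 times together 0 members were called, beside 0.0545% of all genes higher, 0.0872% lower and 0.142% either way. The summed level of the 89 members was 14272, 15708 and 14485 CPM in the intact libraries and 12936, 15725, 14500 and 14401 CPM after injury.

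**Figure D2:**
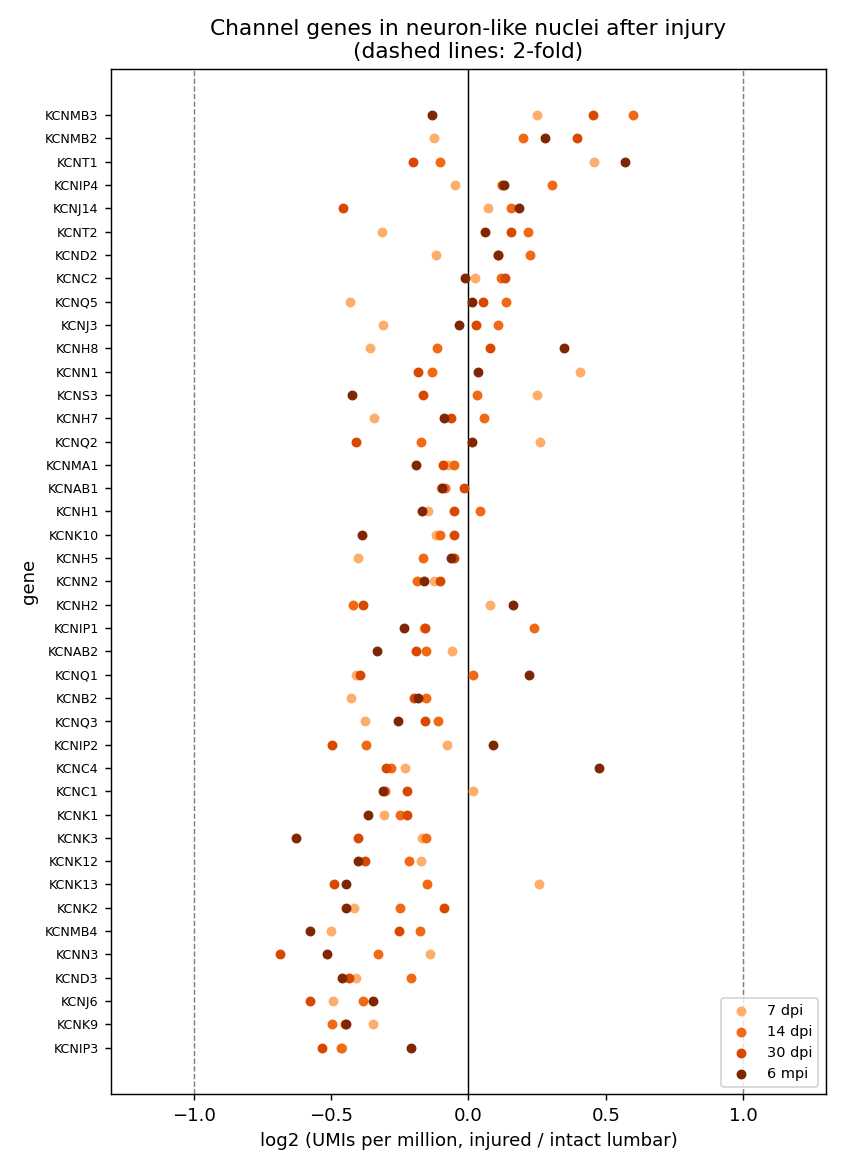
Ratio to intact lumbar cord of 41 of the 42 counted members in neuron-like nuclei (log2, x axis), with 1 point per injured library and genes ordered by their median. Every point lies between the dashed lines at 2-fold, from -0.69 for KCNN3 at 30 dpi to 0.60 for KCNMB3 at 14 dpi, and points below 0 outnumber those above.

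Within these small ratios, more members were lower than higher. The median log2 ratio of the 42 members was -0.15, -0.14, -0.19 and -0.17 at 7, 14 and 30 dpi and 6 mpi, beside 0.03, -0.04, -0.03 and 0.03 for all counted genes. In 17 of the 42 members all 4 injured libraries lay below all 3 intact libraries, beside 12.1% of all genes, and in 0 members they lay above, beside 8.5%. Among them were the delayed rectifier KCNB2, KCND3, KCNH5, KCNQ3, KCNMA1, KCNN3, KCNJ6, the leak channels KCNK1, KCNK2, KCNK3, KCNK9 and KCNK12, and the auxiliary subunits KCNAB1, KCNAB2, KCNIP3 and KCNMB4. With each nucleus thinned to 1000 UMIs, which leaves fewer UMIs and weighs nuclei alike, the count was 4 of 43, beside 6.73% of all genes under the same thinning. The neuron list had medians of -0.13, -0.17, -0.17 and -0.35, and 4 of its 23 counted genes lay below the intact libraries in all 4 injured ones. The 6 oligodendrocyte markers measured summed to 215, 185 and 214 CPM in intact and 135, 120, 132 and 165 CPM in injured neuron-like nuclei. KCNMB4, restricted to oligodendrocyte-like nuclei, was among the 17. The part of either list in the result was not tested.

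KCNJ6 was at 326, 381 and 349 CPM in intact cervical, thoracic and lumbar cord and at 248, 268, 234 and 275 CPM at 7, 14 and 30 dpi and 6 mpi. The injured libraries were thus all below the intact ones, with log2 ratios of -0.49, -0.38, -0.58 and -0.35 and intervals that together span -0.61 to -0.30. KCNN3, an SK channel of the afterhyperpolarization, chosen here after its values were seen, was at 84.1, 96.9 and 81.7 CPM in the intact libraries and at 74.1, 65.1, 50.8 and 57.2 CPM after injury. KCNQ3 and KCNQ5 carry the M-current, a brake on repetitive firing, and differed: KCNQ3 was below the intact libraries in all 4 (713, 843 and 731 against 563, 678, 655 and 611 CPM), while KCNQ5 was below them at 7 dpi only (768, 993 and 768 against 569, 845, 796 and 774 CPM). The members with the highest intact CPM, KCNIP4 and KCND2, did not follow: KCNIP4 was at 4882, 5644 and 5071 CPM in the intact and 4902, 6255, 5517 and 5554 CPM in the injured libraries. KCND2 was at 1561, 1451 and 1535 and then 1413, 1793, 1655 and 1656 CPM.

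Neuron-like nuclei were divided into 2948 excitatory-like and 3130 inhibitory-like nuclei by transmitter genes, with 97 cholinergic-like nuclei and 2907 left unnamed. Of 42 counted members, 2 were at least 2-fold higher in excitatory-like nuclei in all 7 libraries (1.72% of all genes) and 2 in inhibitory-like nuclei (1.45%). In nuclei thinned to 1000 UMIs, KCNMB2 was lost from these 4 and KCNH1 was added as higher in excitatory-like nuclei. KCNN3 was at 138, 178, 136, 132, 114, 92.1 and 91.7 CPM in excitatory-like and at 50.3, 41.5, 53.3, 45.6, 41.6, 32.4 and 30.2 CPM in inhibitory-like nuclei of intact cervical, thoracic and lumbar cord, 7, 14 and 30 dpi and 6 mpi. The groups did not overlap, and the median log2 ratio was 1.51. KCNIP4 had a median log2 ratio of 1.27, with 7499.9 to 11254 CPM in excitatory-like and 3443 to 4006 CPM in inhibitory-like nuclei.

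Among inhibitory-like nuclei the leak channel gene KCNK13, restricted to microglia among the large classes, was at 38.5 to 59.4 CPM against 5.47 to 10.0 CPM in excitatory-like nuclei, with a median log2 ratio of excitatory over inhibitory of -2.60. KCNK13 was among the 10 leading genes of inhibitory-like sub-clusters 22 (197 nuclei) and 23 (178 nuclei), so the pooled level need not hold for all inhibitory-like nuclei. KCNMB2 was at 18.7 to 29.1 against 4.41 to 13.2 CPM, with a median of -1.26. KCNH1, an EAG channel, and KCNAB1 stood just under the limit, with median log2 ratios of 1.21 and 1.03 and lowest ratios of 0.98 and 0.94. KCNC2 showed no such split (median 0.09), nor did KCNB2 (-0.10). In excitatory-like nuclei 7 of 42 members lay below the intact libraries in all 4 injured ones (11.3% of all genes), and in inhibitory-like nuclei 12 of 42 (10.9%). In each group 1 member lay above them, KCNG3 in excitatory-like (6.15%) and KCND2 in inhibitory-like nuclei (8.22%). KCNG3 was at 6.07, 9.65 and 8.63 CPM in intact excitatory-like nuclei, below 10 CPM, so it was counted only through injured libraries. KCND2 was at 1217, 1015 and 1286 CPM in intact inhibitory-like nuclei and at 1299, 1298, 1311 and 1306 CPM in injured ones. The injured KCND2 levels were thus close to intact lumbar cord. The 42 members were counted separately in each group and are not the same set. KCNAB2, KCNJ6, KCNK12 and KCNK9 were on both lists of lower members and also among the 17 of all neuron-like nuclei.

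**Figure D3:**
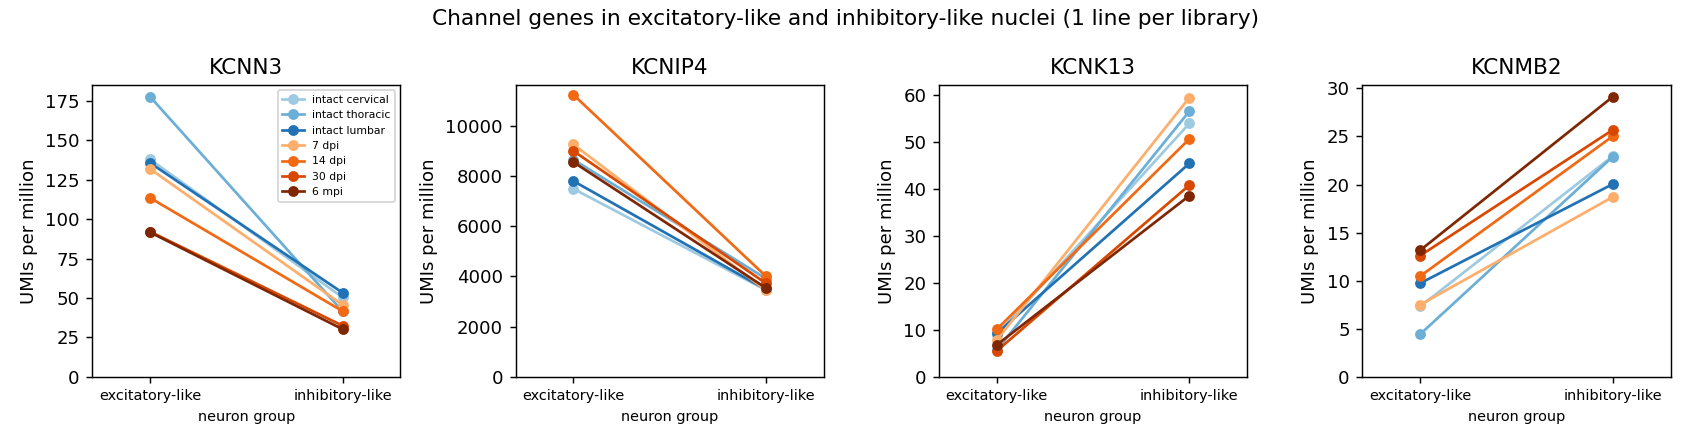
Level in CPM (y axis, from 0) of the 4 members that differed at least 2-fold between excitatory-like and inhibitory-like nuclei in all 7 libraries, with 1 line per library. KCNN3 and KCNIP4 fall and KCNK13 and KCNMB2 climb from left to right in every library.

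In microglia-like nuclei 1 member was past 2-fold higher and 1 past 2-fold lower at all times after injury. Of 19 counted members, KCNH1 was past 2-fold higher in all 4 injured libraries (2.28% of all 8507 counted genes) and KCNAB1 past 2-fold lower in all 4 (1.15%), which makes 2 either way (3.43%). KCNH1 was counted only through its 14 dpi level, so its place among the 19 rests on a level that was high after injury. At single times 3, 4, 4 and 3 members were called higher (7.31%, 5.54%, 7.45% and 10.7% of all genes) and 2 at each time lower (4.68%, 3.81%, 5.04% and 4.65%). Without a size limit, 4 members (KCNAB2, KCNH1, KCNMB3 and KCNN2) lay above all intact libraries in all 4 injured ones (15.7% of all genes) and 3 (KCNAB1, KCNMB1 and KCNQ1) lay below (13.4%). KCNMB3 was at 7.84 CPM in cluster 0, which held most intact nuclei, and at 17.9 and 14.6 CPM in clusters 9 and 3. Its place among the 19 thus also leaned on injured libraries, as did that of KCNN2. Cluster 0 held 84.7% to 93.9% of the microglia-like nuclei of the intact libraries and at most 0.998% of those of an injured one, and most nuclei of each injured library sat in other clusters: 9 and 27 at 7 dpi, 3 at 14 dpi, 11 and 12 at 30 dpi, and 15 and 16 at 6 mpi. Cluster 12 also held 7.35% of the nuclei of 14 dpi and cluster 3 also 7.04% of those of 30 dpi. The thresholds that name clusters were set after the clusters were seen. The first naming rule would have kept 4 to 31 nuclei of each intact library out of this class, but 2891 of 3467, 391 of 4596, 1326 of 3849 and 1253 of 2305 in the injured libraries in order of time. A difference in microglial state and a difference between libraries cannot be told apart here.

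KCNAB1, a cytoplasmic beta subunit that speeds the inactivation of KCNA channels, was at 243, 254 and 241 CPM in intact cervical, thoracic and lumbar cord. It was at 74.4, 109, 22.1 and 23.1 CPM at 7, 14 and 30 dpi and 6 mpi. All injured values lay far below the intact ones, which were close together, with log2 ratios against the intact lumbar library of -1.70, -1.15, -3.45 and -3.38 and intervals from -3.64 to -1.06. Under the first naming rule KCNAB1 was also past 2-fold lower in all 4 injured libraries. The level of KCNAB1 was low in both large clusters of the later times: 31.7 and 4.97 CPM in clusters 11 and 12 at 30 dpi and 6.26 and 45.9 CPM in clusters 15 and 16 at 6 mpi. In neuron-like nuclei KCNAB1 stayed between 225 and 272 CPM in all 7 libraries. KCNAB1 lies on chromosome 2 at 58422407 to 58840274 (Mmul_10).

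KCNAB2, the sister subunit, went the other way and was chosen after its values were seen. It was at 15.3, 13.2 and 12.3 CPM in the intact libraries and at 21.2, 28.7, 51.6 and 78.2 CPM after injury. The log2 ratios were 0.79, 1.22, 2.07 and 2.67, past 2-fold at all times but 7 dpi. The higher KCNAB2 levels sat in clusters led by GPNMB, with 109 CPM in cluster 12 at 30 dpi and 134 CPM in cluster 15 at 6 mpi, against 13.8 and 13.3 CPM in clusters 11 and 16 of the same libraries. KCNAB1 was lower in the GPNMB-led cluster than in the other at both times. KCNAB2 overlaps NPHP4 on the opposite strand.

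KCNH1 was at 5.05, 3.14 and 3.55 CPM in the intact libraries and at 7.29, 49.3, 10.5 and 8.09 CPM at 7, 14 and 30 dpi and 6 mpi. The 14 dpi library stood apart at a log2 ratio of 3.80 (3.24 to 4.42), and the other 3 ratios were 1.04, 1.56 and 1.19. The level there carried KCNH1 over the mean of 10 CPM, as the other libraries held 3.14 to 10.5 CPM. In cluster 3 KCNH1 was at 51.8 CPM in nuclei of 14 dpi and 2.26 CPM in nuclei of 30 dpi. The call of KCNH1 was lost against the mean of the 3 intact libraries, with ratios centred on the median gene, in thinned nuclei and under the first naming rule.

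Several members with lower levels were called at some times and were chosen after their values were seen. KCNN2, an SK channel, was at 8.84, 8.34 and 7.37 CPM in the intact libraries, 12.2 CPM at 7 dpi, and 53.3, 55.4 and 41.8 CPM at 14 dpi, 30 dpi and 6 mpi. It was thus higher at the 3 later times, by 2.86, 2.91 and 2.50 on the log2 scale. All its intact levels were below 10 CPM, so KCNN2 was counted only through injured libraries. KCNMA1, the pore of the BK channel, was at 13.3, 5.65 and 10.2 CPM in the intact libraries and at 110 CPM at 7 dpi, with 22.8, 6.42 and 18.0 CPM at the later times. The 7 dpi level of KCNMA1 was alike in cluster 9 (111 CPM) and in the dividing cluster 27, led by TOP2A and MKI67 (96.6 CPM).

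The Kv7 genes KCNQ1 and KCNQ3 were among the 5 members with the highest intact CPM in microglia-like nuclei. KCNQ3 was at 2224, 2865 and 2365 CPM in the intact libraries and at 3624, 3714, 2563 and 1711 CPM after injury, above the intact range at 7 and 14 dpi, inside it at 30 dpi and below it at 6 mpi. The class level at the later times mixed unlike clusters. KCNQ3 was at 3479 CPM in cluster 11 and 1095 CPM in the GPNMB-led cluster 12 at 30 dpi. At 6 mpi it was at 3208 CPM in cluster 16 and 439 CPM in the GPNMB-led cluster 15. Cluster 0 of the intact libraries held it at 2218 to 2883 CPM. KCNQ1 was at 383, 436 and 361 CPM and then 350.2, 358, 187 and 180 CPM, close to intact lumbar cord at 7 and 14 dpi (log2 ratios of -0.04 and -0.01) and at -0.95 and -1.01 later. KCNMB1, a BK subunit, was at 184, 164 and 195 CPM and then 141, 88.1, 108 and 98.7 CPM, below the intact libraries in all 4. KCNMB1 lies within KCNIP1 on the opposite strand (chromosome 6, 167769625 to 167783950, Mmul_10), and KCNQ1 overlaps a gene model of the same strand, so their counts are less certain.

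**Figure D4:**
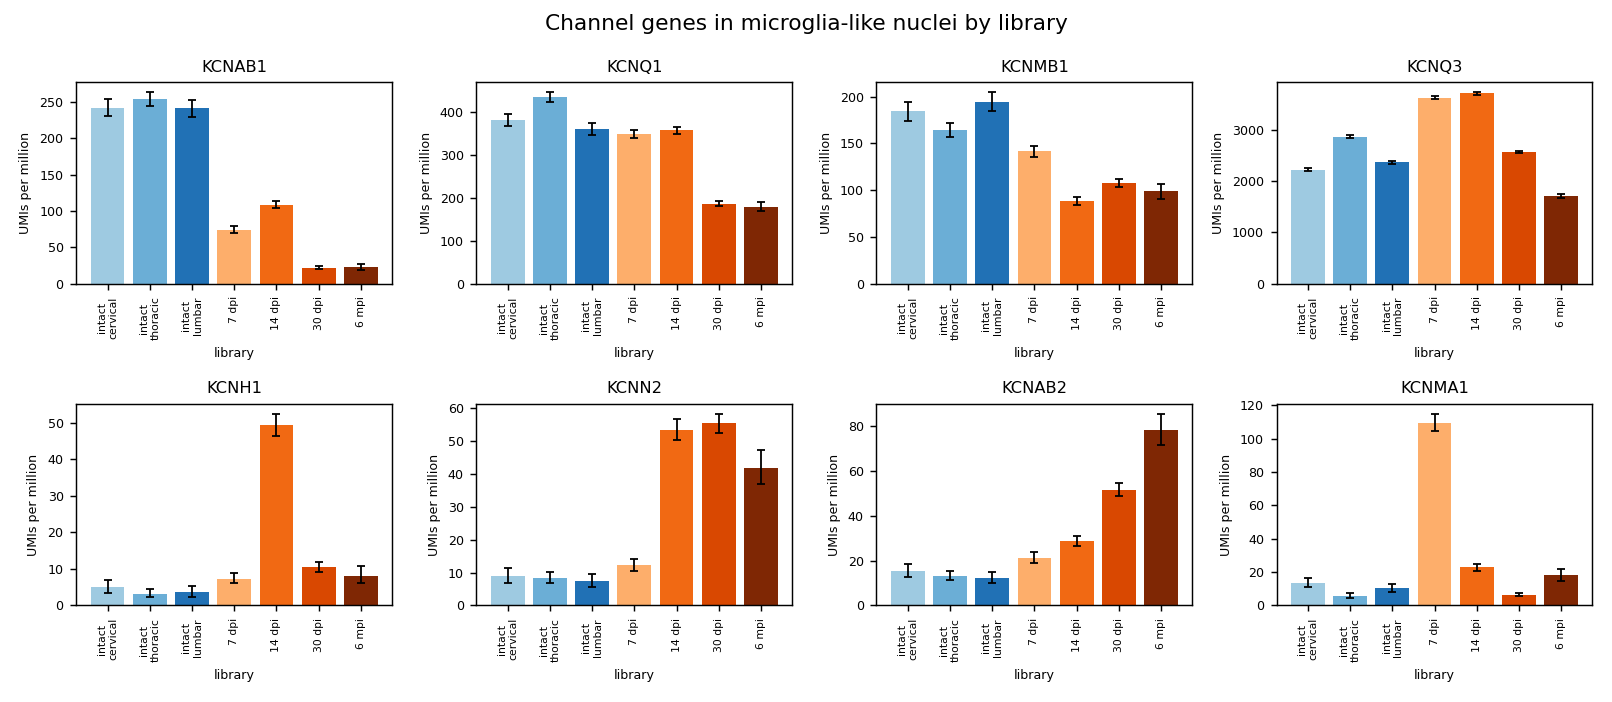
Level in CPM (y axis, from 0) of 8 members in microglia-like nuclei of the 7 libraries (x axis), with exact 95% Poisson intervals as error bars. KCNAB1 drops from 241 to 254 in intact cord to 22.1 to 109 after injury, KCNN2 and KCNAB2 are high late, KCNMA1 is high at 7 dpi and KCNH1 at 14 dpi.

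In oligodendrocyte-like nuclei 0 of 18 counted members were past 2-fold in all 4 injured libraries, beside 0.517% of all genes higher, 0.29% lower and 0.807% either way. Single times gave 3, 2, 2 and 3 members higher (4.29%, 1.69%, 2.07% and 4.05% of all genes) and 0, 2, 3 and 1 lower (1.6%, 1.94%, 1.65% and 1.97%). Without a size limit, the injured libraries lay above all intact ones for 4 members (13.3% of all genes) and below for 3 (11.9%). The higher ones were KCNH8, KCNK1, KCNK10 and KCNQ5, and the lower ones KCNAB1, KCNK12 and KCNMB4.

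KCNH8 and KCNK12 were among the 5 members with the highest intact CPM, while KCNK10 and KCNAB1 were chosen after their values were seen. KCNK10, a mechano- and lipid-sensitive leak channel of the TREK type, was at 60.3, 56.0 and 75.5 CPM in the intact libraries. It was at 145, 162, 162 and 126 CPM at 7, 14 and 30 dpi and 6 mpi. The log2 ratios were 0.95, 1.10, 1.10 and 0.73, past 2-fold at 14 and 30 dpi, with no overlap between intact and injured libraries. KCNK12, a THIK-type leak channel, was at 114, 129 and 104 CPM and then at 76.0, 75.9, 37.7 and 48.1 CPM. Its log2 ratios were -0.45, -0.45, -1.46 and -1.11. KCNH8, a voltage-gated channel of the ELK type, was at 213, 224 and 267 CPM and then at 320, 311, 432 and 482 CPM.

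**Figure D5:**
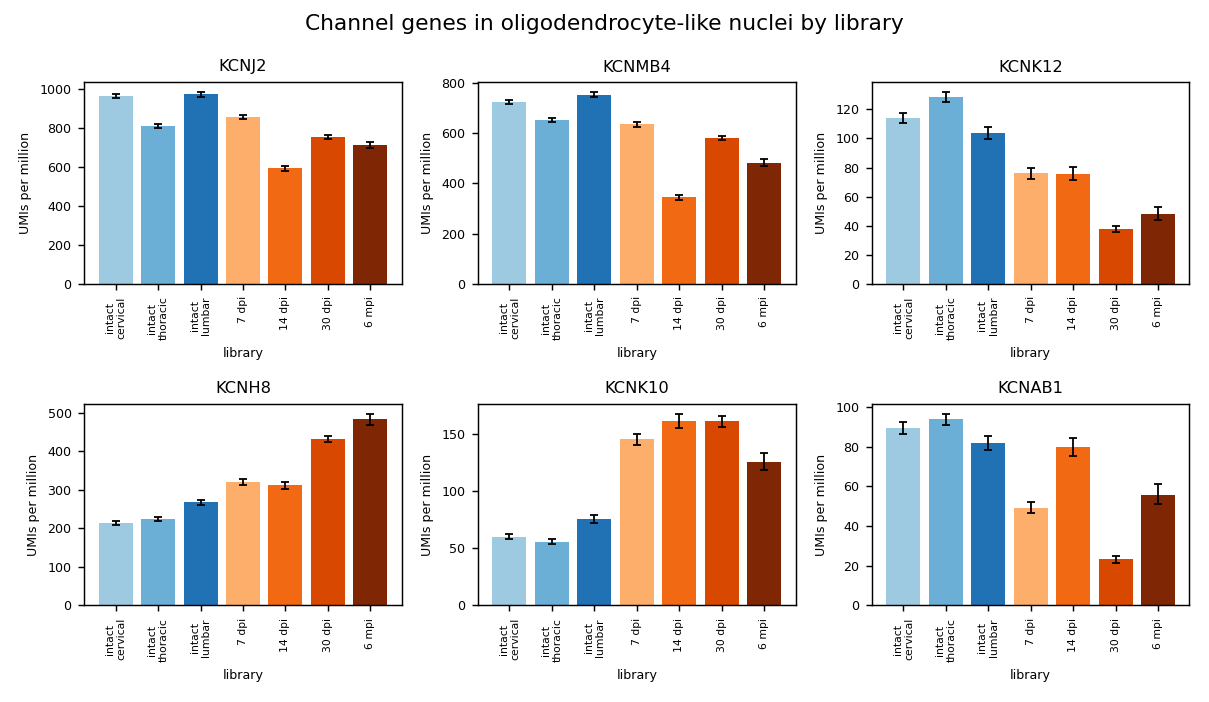
Level in CPM (y axis, from 0) of 6 members in oligodendrocyte-like nuclei of the 7 libraries (x axis), with exact 95% Poisson intervals as error bars. KCNH8 and KCNK10 are higher and KCNK12 and KCNMB4 lower in the injured than in the intact libraries, and KCNAB1 is lowest at 30 dpi (23.2).

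These members also split the oligodendrocyte clusters. Clusters 1 and 2, led by TRPM1 and OPALIN, held KCNH8 at 825 and 640 CPM and KCNK10 at 330 and 188 CPM, against 82.0 and 9.60 CPM of KCNH8 and 33.5 and 2.40 CPM of KCNK10 in clusters 4 and 8. KCNK12 was at 10.9 and 10.0 CPM in clusters 1 and 2 and at 91.4 and 207 CPM in clusters 4 and 8, and KCNAB1 at 12.7 and 24.3 against 68.4 and 141 CPM. KCNJ2 and KCNK1 varied less, with 600 to 988 CPM and 193 to 287 CPM over the 5 oligodendrocyte clusters. Cluster 2 held 42.5%, 38.1% and 49.0% of the class in intact cervical, thoracic and lumbar cord, and cluster 1 held 58.1%, 45.2%, 54.5% and 51.9% at 7, 14 and 30 dpi and 6 mpi, so libraries and clusters largely coincide. Within cluster 2, KCNK10 was at 171, 183 and 193 CPM in intact cervical, thoracic and lumbar cord and at 347 and 257 CPM at 14 dpi and 6 mpi, higher than intact in that cluster. Cluster 4 held KCNK10 at 20.8 CPM in intact lumbar cord (56 nuclei) and at 20.4, 57.5, 34.2 and 18.3 CPM at 7, 14 and 30 dpi and 6 mpi, and cluster 6 at 24.7, 28.2 and 25.6 CPM in the intact libraries and 22.6 CPM at 6 mpi. The higher KCNK10 level was thus seen within some clusters and times and not in others. KCNMB4 in cluster 2 was at 877, 825 and 922 CPM in the intact libraries and at 378 and 508 CPM at 14 dpi and 6 mpi. Cluster 4 of the intact lumbar library held KCNMB4 at 507 CPM, against 529, 335, 568 and 450.1 CPM after injury, so it was not lower there at 7 and 30 dpi. KCNH8 in cluster 2 was at 559, 697 and 642 CPM in the intact libraries and at 678 CPM at 14 dpi, inside that range, and 897 CPM at 6 mpi, above it. In cluster 6 KCNH8 was at 133, 143 and 135 CPM and then 136 CPM at 6 mpi. KCNK12 in cluster 4 was at 118 CPM in the intact lumbar library and at 112, 119, 58.1 and 81.5 CPM at 7, 14 and 30 dpi and 6 mpi. KCNAB1 in cluster 4 was at 60.8 CPM in the intact lumbar library and at 67.8, 119, 33.3 and 96.4 CPM at 7, 14 and 30 dpi and 6 mpi. In cluster 6 KCNAB1 was at 80.6, 86.4 and 79.1 CPM in the intact libraries and 51.3 CPM at 6 mpi. The class-level differences of KCNH8, KCNK12 and KCNAB1 were thus absent within some clusters at some times. In cluster 4 KCNAB1 went the other way at 14 dpi and 6 mpi.

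In OPC-like nuclei 0 of 33 counted members were past 2-fold in all 4 injured libraries, beside 0.34% of all genes higher, 0.164% lower and 0.504% either way. Single times gave 1, 1, 3 and 2 members higher (3.45%, 2.26%, 3.79% and 6.46% of all genes) and 1, 1, 0 and 2 lower (2.25%, 2.33%, 1.78% and 1.97%). Without a size limit, the injured libraries lay above all intact ones for 0 members (7.76% of all genes) and below for 1 (7.82%). The oligodendrocyte-restricted members KCNJ2 and KCNMB4 varied widely and were chosen here after their values were seen. KCNJ2 was at 83.0, 46.8 and 15.5 CPM in intact cervical, thoracic and lumbar cord and at 12.3, 11.2, 90.8 and 26.2 CPM after injury, and KCNMB4 at 74.2, 45.9 and 22.8 and then 24.6, 16.0, 92.5 and 42.6 CPM. At a finer clustering (Leiden resolution 2) the log2 ratio of KCNMB4 at 30 dpi went from 2.02 to -0.017. The 6 oligodendrocyte markers measured moved alongside, with summed levels of 1238, 1119 and 280 CPM in the intact and 278, 266, 1814 and 912 CPM in the injured OPC-like nuclei. Their part in the KCNJ2 and KCNMB4 values was not tested. KCND2 was at 4018, 3891 and 4522 CPM in the intact and 4005, 4419.6, 3816 and 3445 CPM in the injured libraries, and KCNMA1 at 473 to 557 and 549.6 to 664 CPM.

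In astrocyte-like nuclei 1 of 34 counted members, KCNQ1, was past 2-fold higher in all 4 injured libraries (0.946% of all genes) and 0 lower (0.226%), or 1.17% of all genes either way. KCNQ1 was counted only through its injured libraries, since every intact level was below 10 CPM. Single times gave 7, 4, 3 and 3 members higher (12%, 4.22%, 5.64% and 9.39% of all genes) and 4, 2, 5 and 1 lower (4.64%, 2.07%, 3.58% and 3.88%). Without a size limit, the injured libraries lay above all intact ones for 1 member (10.1% of all genes) and below for 1 (8.11%). KCNQ1 was at 6.89, 8.22 and 4.50 CPM in the intact libraries and at 17.7, 11.5, 9.71 and 14.1 CPM after injury, from 14, 20, 14 and 8 UMIs. KCNMB1, chosen after its values were seen, was at 7.86, 8.22 and 5.14 CPM and then 48.0, 16.2, 12.5 and 7.04 CPM. It too was below 10 CPM in every intact library and was counted only through injured ones. Both genes had higher levels in microglia-like nuclei. The 8 microglia markers summed to 32.5, 83.4 and 17.7 CPM in intact and 178, 152, 126 and 59.9 CPM in injured astrocyte-like nuclei, the order of KCNMB1 after injury but not that of KCNQ1. KCNQ1 was also at 51.2 to 85.0 CPM in oligodendrocyte-like nuclei, and the 6 oligodendrocyte markers summed to 556, 738 and 278 CPM in intact and 813, 268, 435 and 782 CPM in injured astrocyte-like nuclei. Their part in these values was not tested. KCNQ1 was no longer called against the mean of the intact libraries, without doublet removal, in thinned nuclei or at a finer clustering. KCNJ10 was at 95.8, 75.7 and 108 CPM and then 85.8, 149, 108 and 118 CPM, and its interval of the ratio left out 1 only at 14 dpi (0.47, 0.26 to 0.67). Cluster 13 held 66.0% of astrocyte-like nuclei at 14 dpi and 48.2% in intact lumbar cord, and within it KCNJ10 was at 181 (157 to 207) and 153 (142 to 165) CPM. Within cluster 10 it was at 86.3 (63.4 to 115) and 50.1 (42.9 to 58.2) CPM. Cluster 10 also held KCNJ10 at 90.8 (72.3 to 112.5) CPM at 30 dpi, where the class ratio did not leave out 1, and at 55.1 (35.3 to 82.0) CPM at 7 dpi.

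Between intact segments, 0 of 42 counted members in neuron-like nuclei were 2-fold higher or lower in both cervical and thoracic than in lumbar cord (0.0109% and 0.0763% of all genes). Oligodendrocyte-like nuclei gave 0 of 18 (0.0126% and 0.0379%) and microglia-like nuclei 0 of 19 (0.494% and 0.176%). OPC-like nuclei gave KCNJ2 and KCNMB4 higher (1.37%) and 0 lower (0.0703%), with the oligodendrocyte markers as given above. Astrocyte-like nuclei gave KCNMB4 higher (0.967%) and KCNH7, an ERG channel, lower (0.129%). KCNMB4 was at 23.3, 24.1 and 6.68 CPM in cervical, thoracic and lumbar cord, and the 6 oligodendrocyte markers summed to 556, 738 and 278 CPM in these nuclei. Their part was not tested. KCNH7 was at 74.7, 28.0 and 180 CPM in cervical, thoracic and lumbar cord. Cluster 13 made up 40.1%, 19.0% and 48.2% of these nuclei, and within it KCNH7 was at 144, 57.6 and 289 CPM. In cluster 10 it was at 18.1, 21.0 and 42.5 CPM, so KCNH7 was highest in lumbar cord in both clusters, while cervical was above thoracic cord in cluster 13 only.

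Of 12 partner genes of potassium channels, 6 were counted in neuron-like, 4 in oligodendrocyte-like, 3 in microglia-like, 6 in OPC-like and 7 in astrocyte-like nuclei. None of those counted was past 2-fold in all 4 injured libraries, beside 0.142%, 0.807%, 3.43%, 0.504% and 1.17% of all genes either way. Of 12 genes of other potassium and pacemaker transport, 10 were counted in neuron-like nuclei and 0 were called in all 4 injured libraries there.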

How the data were processed

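Nuclei of rhesus monkey spinal cord were profiled with 10x Chromium, 1 library in each of 7 groups taken from the labels. The authors aligned reads to Mmul_10 with Cell Ranger 6.0.0 and deposited UMI counts per gene and barcode, not normalized. The annotation release and the strand setting are not given in the sources used here. A barcode was kept where it held more than 500 genes and more than 1000 UMIs, of which less than 10% were mitochondrial and less than 5% from hemoglobin genes (67084 of 69332), and the 5% of each library with the highest Scrublet doublet scores (3354) were removed. Counts were scaled to 10000 per nucleus, and 2000 variable genes without the members, 30 principal components, 20 neighbours and Leiden resolution 1 gave the clusters (scanpy 1.11.5, leidenalg 0.10.2, Python 3.11.15). Clusters were named from fixed marker lists of 11 classes, with thresholds of the naming rule set after the clusters were seen; 2444 nuclei stayed unnamed and 851 in mixed sub-clusters were left out.

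Raw counts were summed by class and library and divided by the class total. Ratios carry exact conditional binomial 95% intervals and levels exact Poisson ones (scipy 1.17.1). A gene was counted at a mean of 10 CPM over the 7 libraries. The steps were tested on simulated data. Members and lists were chosen with earlier results of these data known. Genes were named by rule where they were among the 5 with the highest intact CPM in a class, called in all 4 injured libraries, restricted to a class, or different between neuron types or segments; others are marked in the text as chosen after their values were seen. Gene positions are from RefSeq (Mmul_10), which gave 87 of 89 members. Fewer nuclei with a transcript and fewer transcripts per nucleus cannot be told apart in these sums. Some genes are not reported here or drawn in the plots.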

Additional observations from a re-analysis of the deposited data

How the results depend on the processing

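No paired analysis was possible because each group has 1 library. Among members past 2-fold in all 4 injured libraries, a limit of 1 CPM gave 2 in neuron-like nuclei (KCNA2 and KCNJ10 lower), 1 in oligodendrocyte-like (KCNMB2 lower), 6 in microglia-like and 2 in astrocyte-like nuclei (KCNQ1 higher and KCNA2 lower). In microglia-like nuclei the count was 1 (KCNAB1) against the mean of the 3 intact libraries, with ratios centred on the median gene, with nuclei thinned to 1000 UMIs and under the first naming rule, and 0 at 3-fold. In OPC-like nuclei it was 1 (KCNK13 higher) without doublet removal. In astrocyte-like nuclei it was 0 against the mean of the intact libraries, thinned, at Leiden resolution 2, at 3-fold and under the first naming rule, and 2 (KCNMB1 and KCNQ1) with 6 mpi left out. The count of 17 members of neuron-like nuclei below the intact libraries was 4 (KCND3, KCNJ6, KCNK13 and KCNQ3) in thinned nuclei. With thinning KCNH7 was added as neuron-restricted. The log2 ratio of KCNMB4 in OPC-like nuclei at 30 dpi was 2.02 and turned to -0.017 at Leiden resolution 2. Of 1536 values of named genes under the alternatives, 1162 stayed within their counting interval, 373 moved past it and 1 turned. The causes were not tested. The first naming rule and the counts without a size limit, in every class and neuron group, were added after seeing the data. The median of all genes shifted by over 0.1 on the log2 scale in microglia-like and OPC-like nuclei at 6 mpi (0.16 and 0.12), in oligodendrocyte-like nuclei at 7 dpi (0.11) and in astrocyte-like nuclei at 7 dpi and 6 mpi (0.13 and 0.11).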

Other observations

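Ependymal-like nuclei, which line the central canal, were few: the cervical library held 63, the thoracic library 109 and the intact lumbar library 319, while 7 dpi had 32, 14 dpi 48, 30 dpi 46 and 6 mpi 6. KCNIP4, the KCND partner, was at 199, 1089.7 and 2616 CPM in these intact segments and at 769, 1877, 1442 and 6170.2 CPM after injury, the last from 6 nuclei. The intact values thus differed more than 10-fold between segments, with intervals that did not overlap. KCNH1 was at 345, 359 and 404 CPM in the intact libraries and at 450.3, 214, 503 and 386 CPM after injury, and KCNMA1 at 784, 1039.6 and 968 and then 1777, 1061, 553 and 386 CPM. These genes were chosen after their values were seen, and neuron RNA in these few nuclei was not tested.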
